A study of Schizosaccharomyces pombe with 8 samples.

Results

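Zinc handling in the fission yeast Schizosaccharomyces pombe was followed through 5 genes of the coding count table, chosen by their gene IDs out of 5137 coding features. They were zrt1 (SPBC16D10.06), zhf1 (SPAC23C11.14), zym1 (SPAC22H10.13), loz1 (SPAC25B8.19c) and adh4 (SPAC5H10.06c). RNA counts came from 8 libraries, 2 from each of 4 strains grown in YEA, a rich medium, and harvested in mid-log phase: wild type and strains labelled nht1-delta, iec1-delta and iec5-delta, each for the loss of 1 subunit of the INO80 nucleosome remodelling complex. No label records a change of zinc supply, so the genes are zinc-responsive by background knowledge and not by a treatment in these cultures. Both libraries of a group carry 1 strain name, so the deletion and any other difference between the strains cannot be told apart. The wild-type strain name begins with SPJ and those of the other strains with CS. What these prefixes stand for is not stated, and the difference goes with every comparison with wild type. The labels number the replicates without saying that they are separate cultures, so p-values measure the spread between libraries, which may be technical.

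Cells need zinc as a cofactor of many enzymes and keep it within limits by uptake, storage in organelles and binding by small proteins. In fission yeast the zinc finger protein Loz1 acts as a repressor when zinc is plentiful: it keeps down zrt1, the gene of the plasma membrane zinc importer, adh4, for an alcohol dehydrogenase, and an antisense RNA of adh1. When zinc is scarce these are transcribed, and the antisense RNA goes with less mRNA of adh1, whose product is the abundant zinc-dependent alcohol dehydrogenase. Zhf1 moves zinc into the endoplasmic reticulum, and Zym1 is a metallothionein, a small metal-binding protein.

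Loz1 binds DNA elements with a GATC centre. The core GNAGATC or GNCGATC was searched for on both strands in the 300 bases before each gene start annotated by RefSeq on build ASM294v3, counting every match even where matches overlap. Of 5114 coding genes with such a window, 463 (9.1%) held at least 1 match and 57 (1.11%) held 2 or more. All 5 zinc genes held a match, and 4 of them held 2. The 5 were chosen by background knowledge of zinc genes, and zrt1 and adh4 are known to be repressed by Loz1. Their matches beside the 9.1% are therefore a description of the choice and not an enrichment found here. The sites are shown because they are what the 5 genes share outside the counts; each is given 5′ to 3′ on the gene's own strand over 30 bases, with the 7 bases that match in capitals.
zrt1, chrII:3606973-3607002, plus strand: tattttcaagcGTCGATCcttaaaccttgg
zrt1, chrII:3607145-3607174, plus strand: atataaagaaaGCAGATCctttcattccag
zhf1, chrI:2158141-2158170, plus strand: atcatagaaagGACGATCcaaatatgtgtg
zhf1, chrI:2158277-2158306, plus strand: aatattttcgatcgcaaaatttGATCTTCt
zym1, chrI:2381366-2381395, plus strand: cgcagaGATCTACctttaccaactggatat
zym1, chrI:2381567-2381596, plus strand: caaatatccctGCAGATCctatatcgacat
loz1, chrI:4195266-4195295, minus strand: ggtaacattacGCCGATCaccgttaaaaaa
adh4, chrI:158130-158159, minus strand: gaaaatcatttGAAGATCttttaattcctt
adh4, chrI:158084-158113, minus strand: tggagttggctGCAGATCtatttagcgaaa

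The second zhf1 site and the first zym1 site match on the strand opposite to the gene, and the other 7 on the gene's strand. A match of letters is a description and not a measured binding site. The counted adh4 feature of the deposited table, on build ASM294v2, starts 375 bases farther upstream than the RefSeq gene, and the counted zhf1 feature starts 352 bases farther downstream. By these coordinates both adh4 sites lie inside the counted adh4 feature. The counted adh1 feature starts 1865 bases farther upstream than its RefSeq gene, so the window searched for adh1 lies inside that feature. The 5′ ends of zrt1, loz1 and zym1 differ by 22, 15 and 24 bases between the annotations, and the 3′ ends are the same.

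**Figure D1:**
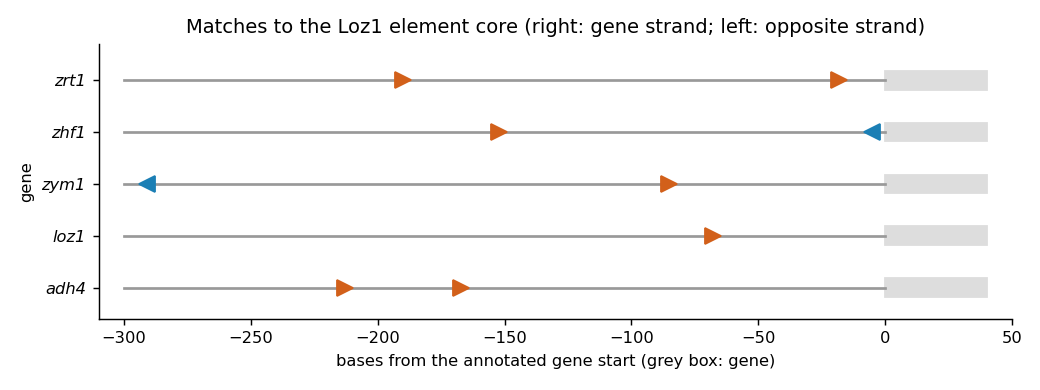
Positions of the matches to the Loz1 element core before each of the 5 genes, with the distance in bases from the annotated gene start on the x axis; triangles that point right match on the gene's strand and those that point left on the opposite strand. Each of the 5 windows of 300 bases holds a match, and the loz1 window alone holds just 1.

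Coding totals ran from 2208165 (iec1 replicate 1) to 3426063 (iec5 replicate 2). Levels are given as CPM, counts scaled by library size. The deleted genes were looked up to test the labels. The iec5 gene had 10 and 5 counts in its own strain and 41 and 42 in wild type. The nht1 gene stood at 29.9 ± 7.12 CPM in the nht1 libraries and at 45.1 ± 4.98 in wild type (SD, n = 2 each). This difference had an adjusted p of 0.212 in the edgeR test. With 79 and 96 counts in the nht1 libraries and 161 and 136 in wild type, a loss of the gene was not borne out by its counts. The iec1 gene stood at 91.9 ± 4.93 CPM in the libraries labelled iec1 and at 38.4 ± 2.89 in wild type (SD, n = 2 each), which goes against that label. Groups are therefore named by their labels throughout, and every direction is that of the labelled libraries.

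All 5 genes had enough counts to be tested. In wild type, per kilobase of feature length, zrt1 had the highest level, at 82.1 ± 8.96 CPM per kb, and zhf1 followed at 79.4 ± 7.88. The level of adh4 was 44.7 ± 1.21, that of zym1 18.1 ± 4.47, and that of loz1, for the repressor itself, 5.72 ± 0.118 CPM per kb (SD, n = 2 each).

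Of the 5 genes, adh4 was the 1 that passed the test: it rose in the libraries labelled nht1 and in those labelled iec1, with no call against wild type in iec5. A call is a Benjamini-Hochberg adjusted p under 0.05 over 4652 coding genes in the edgeR quasi-likelihood test. That is 1 of 5 called in nht1, where 4.13% of all tested genes were called, 1 of 5 in iec1, where 10.3% were, and 0 of 5 in iec5, where 0.408% were. In iec5 none of the 5 had an unadjusted p under 0.05 either, and DESeq2 called 0. The median log2 fold change of the 5 was 0.05 in nht1, 0.23 in iec1 and 0.23 in iec5, against 0.02, 0.02 and 0.01 over all tested genes. The 2 labelled libraries did not overlap those of wild type for 2 of the 5 genes in nht1, 3 in iec1 and 2 in iec5, where this held for 47.9%, 51% and 32.1% of all tested genes.

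**Figure D2:**
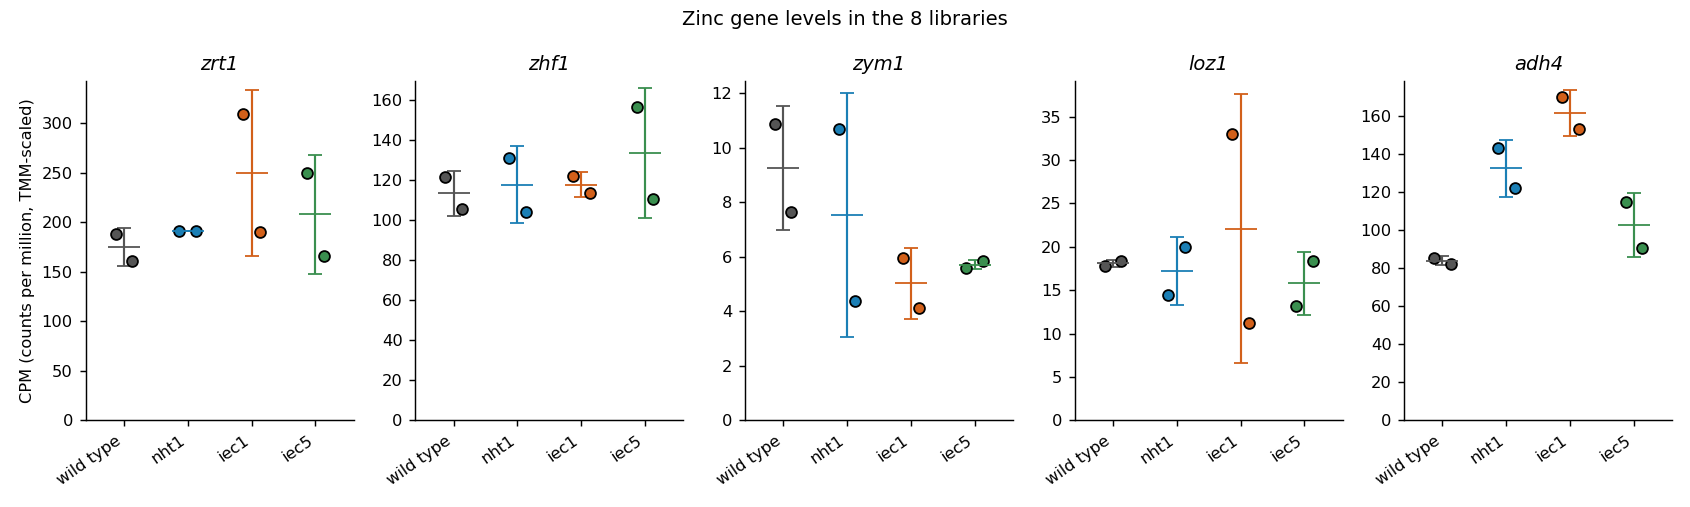
Level of each of the 5 zinc genes in CPM in the 8 libraries; points are libraries, the horizontal mark is the mean of 2 and the bar its SD. The adh4 values of nht1 (122 and 143) and iec1 (153 and 170) lie above both wild-type values (82.2 and 85.5), while the replicates of zrt1 and loz1 in iec1 lie far apart.

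Uptake was represented by zrt1 (chromosome II, 3607199 to 3609330 on ASM294v2, plus strand). Its levels were 188 and 161 CPM in wild type, 192 and 191 in nht1, 309 and 191 in iec1, and 250 and 166 in iec5. Replicate 1 had the higher value in all 4 groups, well above the other libraries in iec1 and iec5 alone, and the iec5 and wild-type values overlapped. The log2 fold change was 0.13 (SE 0.21, adjusted p = 0.81) in nht1, 0.51 (SE 0.21, adjusted p = 0.138) in iec1 and 0.25 (SE 0.21, adjusted p = 0.993) in iec5 by edgeR. The 95% interval of the iec1 value ran from 1.05-fold to 1.92-fold before adjustment for the number of genes. That value was 0.78 (adjusted p = 0.0117) without iec1 replicate 2 and 0.12 (adjusted p = 0.806) without iec1 replicate 1, the shallowest of the 8, so the call turned on which iec1 library was used. The feature shares 114 bases with sir2 and 73 bases with the noncoding RNA SPNCRNA.1622, both on the opposite strand, and whether counting used the strand is not stated in the labels.

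The organelle importer gene zhf1 (chromosome I, 2158659 to 2160086, plus strand) had 121 and 105 CPM in wild type. It had 131 and 104 in nht1, 122 and 113 in iec1 and 156 and 111 in iec5, so nht1, iec1 and iec5 each overlapped wild type. The log2 fold changes of 0.05, 0.05 and 0.23 had standard errors of 0.18 each (edgeR adjusted p = 0.92, 0.91 and 0.993). Their 95% intervals reached at most 1.52-fold up and 0.796-fold down, so larger changes of zhf1 lie outside them.

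The metallothionein gene zym1 (chromosome I, 2381690 to 2382200, plus strand) was thinly covered, with 12 to 36 counts per library. It had 10.9 and 7.64 CPM in wild type, 10.7 and 4.36 in nht1, 5.96 and 4.11 in iec1, and 5.60 and 5.83 in iec5. The iec1 and iec5 values lay below both wild-type values, and of the nht1 values 1 lay within that range and 1 below it. The log2 fold change was -0.91 (SE 0.48, adjusted p = 0.265) in iec1, -0.69 (SE 0.46, adjusted p = 0.993) in iec5 and -0.27 (SE 0.44, adjusted p = 0.812) in nht1 by edgeR. The 95% interval in iec1 spanned 0.262-fold to 1.08-fold, so at this depth a loss of zym1 RNA was not distinguishable from no change.

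The repressor gene loz1 (chromosome I, 4192070 to 4195228, minus strand) had 38 to 72 counts per library. Wild type held 17.8 and 18.3 CPM, nht1 14.5 and 20.0, iec1 33.0 and 11.2, and iec5 13.2 and 18.4. The iec1 libraries were the highest and the lowest of all 8, and all groups overlapped. The log2 fold changes were -0.08, 0.23 and -0.19 in nht1, iec1 and iec5 (SE 0.40, 0.39 and 0.39; edgeR adjusted p = 0.951, 0.782 and 0.993), and the iec1 value turned to -0.69 without iec1 replicate 1. The last 88 bases of the feature overlap SPAC25B8.18 on the opposite strand.

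The alcohol dehydrogenase gene adh4 (chromosome I, 156430 to 158307, minus strand) is known to be repressed by Loz1 and overlaps no other counted feature. It had 283 and 269 counts in wild type, 455 and 335 in nht1, 371 and 521 in iec1, and 348 and 311 in iec5. Scaled by library size these were 85.5 and 82.2 CPM in wild type, 143 and 122 in nht1, 170 and 153 in iec1, and 115 and 90.7 in iec5. Both libraries of nht1, iec1 and iec5 lay above wild type, and those of iec1 above nht1 and iec5. Of all tested genes, 47.9% in nht1, 51% in iec1 and 32.1% in iec5 did not overlap wild type, in either direction. Such shares were not computed between the labelled strains.

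Against wild type, adh4 rose 1.92-fold in iec1 (log2 fold change 0.94, SE 0.16, edgeR adjusted p = 0.000805) and 1.58-fold in nht1 (0.66, SE 0.16, adjusted p = 0.0249). In iec5 the value was 1.22-fold (0.29, SE 0.16, adjusted p = 0.993), with a 95% interval of 0.965-fold to 1.55-fold. The call in iec1 held whichever of the 8 libraries was left out (adjusted p at most 0.016). The call in nht1 ended without wild-type replicate 1 or 2 and without nht1 replicate 1 or 2 (adjusted p = 0.0736 to 0.213).

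The order of adh4 levels was wild type (83.9 ± 2.28 CPM), iec5 (103 ± 16.9), nht1 (132 ± 15.0) and iec1 (162 ± 12.1; SD, n = 2 each). No neighbours in this order differed in the edgeR test (adjusted p = 0.993, 0.497 and 0.924), while iec1 was 1.57-fold above iec5 (log2 fold change 0.65, SE 0.16, adjusted p = 0.0235). That call ended without iec1 replicate 1 (adjusted p = 0.14) or iec5 replicate 2 (adjusted p = 0.288). Of the 5 genes 1 was thus called between iec1 and iec5, where 4.71% of all genes were called. Between iec1 and nht1 and between iec5 and nht1, 0 of 5 were called by edgeR or DESeq2, against 0.15% and 0.537% of all genes, with 0 and 1 at an unadjusted p under 0.05. The strain order of zrt1, zhf1, zym1 and loz1 held no neighbours that differed beyond their spread (adjusted p at least 0.587).

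**Figure D3:**
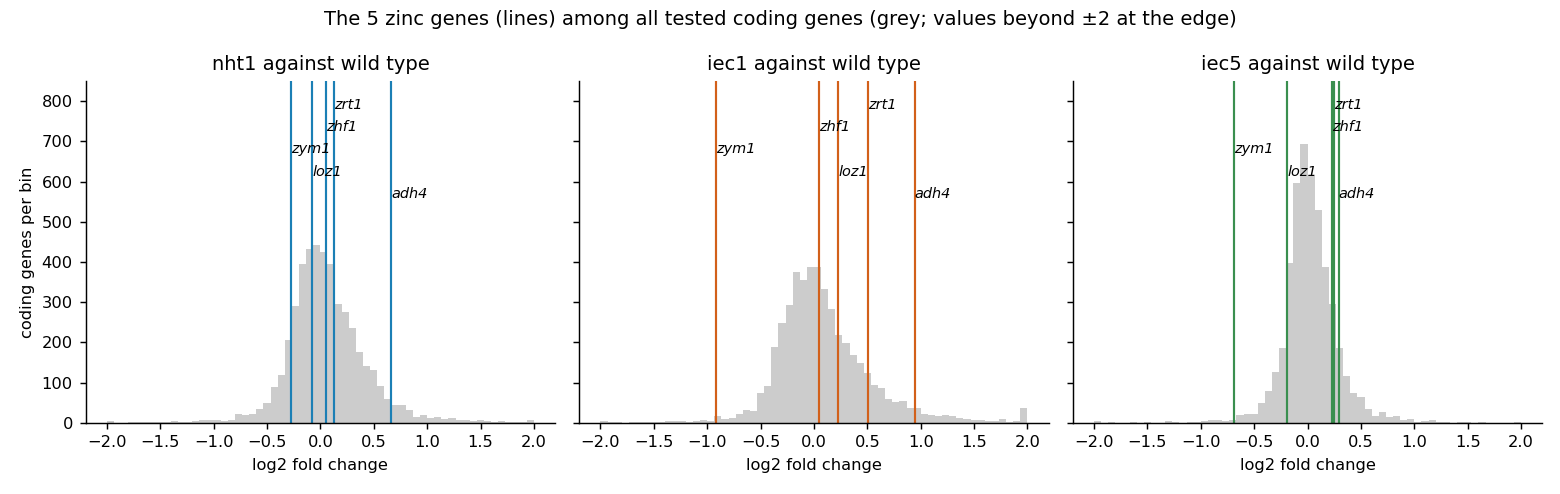
Log2 fold change of the 5 zinc genes (coloured lines) among all 4652 tested coding genes (grey histogram, genes per bin) for nht1, iec1 and iec5 against wild type. The adh4 line lies above 94.5% of genes in nht1, 95.2% in iec1 and 88.9% in iec5, and zhf1 lies near the middle in nht1 and iec1. The thinly counted zym1, which was not called, lies farther out at the low end, at percentile 1.05 in iec1 and 0.924 in iec5.

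The zinc-dependent partner of this pathway, adh1, rose together with adh4 in 2 of the strains. Its levels were 3473 ± 55.4 CPM in wild type, 5158 ± 164 in nht1, 5026 ± 1025 in iec1 and 4214 ± 231 in iec5 (SD, n = 2 each). It rose 1.49-fold in nht1 (log2 fold change 0.57, SE 0.13, edgeR adjusted p = 0.0199) and 1.45-fold in iec1 (0.53, SE 0.13, adjusted p = 0.0141), with 1.21-fold in iec5 (adjusted p = 0.993). The nht1 call ended without any 1 of the wild-type and nht1 libraries (adjusted p = 0.0979 to 0.177), and the iec1 call when iec1 replicate 1 or any wild-type library was left out (adjusted p = 0.0653 to 0.249). A further gene annotated as an alcohol dehydrogenase, adh8, rose 2.15-fold in nht1 (log2 fold change 1.11, SE 0.19, adjusted p = 0.00253) and 2.97-fold in iec1 (1.57, SE 0.19, adjusted p = 3.13e-05), from 38.7 ± 0.306 CPM in wild type to 83.6 ± 11.9 and 115 ± 18.1 (SD, n = 2 each). The nht1 call of adh8 ended without nht1 replicate 2 (adjusted p = 0.0621), and the iec1 call held whichever library was left out. The windows before adh1 and adh8 held no match to the Loz1 element core. Nor did the window before the antisense RNA of adh1, a known target of Loz1, so the search does not find every target.

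**Figure D4:**
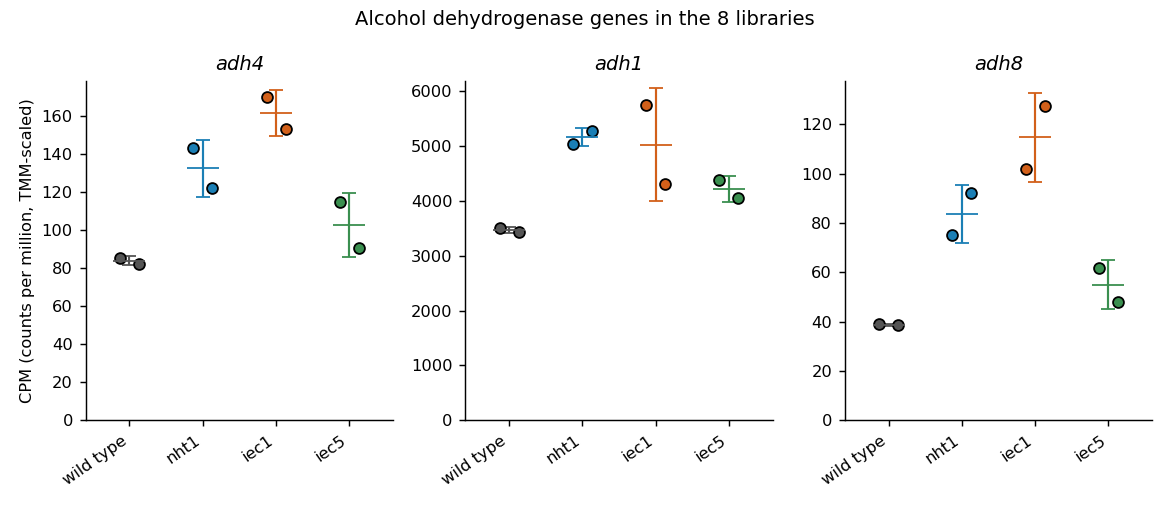
Levels of adh4, adh1 and adh8 in CPM in the 8 libraries; points are libraries, marks are means of 2 and bars are SD. In all 3 genes every nht1, iec1 and iec5 library lies above both wild-type libraries. Of all tested genes, 47.9% in nht1, 51% in iec1 and 32.1% in iec5 did not overlap wild type, in either direction. The gene adh8 is shown because it was called.

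Because zinc shortage is known to move adh4 and adh1 in opposite directions, their counts were also set side by side within each library. There were 2.43 and 2.40 adh4 counts per 100 adh1 counts in wild type, 2.84 and 2.31 in nht1, 2.96 and 3.56 in iec1, and 2.62 and 2.24 in iec5. The nht1 and iec5 ratios straddled those of wild type, and both iec1 ratios lay above them. The 2 iec1 libraries differed in adh1 itself, at 5751 and 4301 CPM. How often the ratio of other gene pairs separates in this way was not computed, and the iec1 ratios were not tested. The antisense RNA adh1AS (SPNCRNA.1710), which is known to appear in zinc shortage, had 1 and 1 counts in wild type, 0 and 0 in nht1, 0 and 2 in iec1, and 1 and 0 in iec5. All are under the limit of 3 counts that a count of 0 allows, or 0.875 to 1.38 CPM, for counting error only, so no adh1AS level could be compared. The feature SPNCRNA.1711 had 0 counts in all 8 libraries; it lies within adh1AS on the same strand, and how reads shared by both were counted is not stated in the labels. These features lie opposite to adh1, which had 11230 to 16029 counts in each library, so few or no reads of adh1 were counted to them. Whether strand or the overlap of adh1AS with SPNCRNA.1711 kept such reads out is not stated in the labels. If shared reads were dropped, the low counts do not give the adh1AS level.

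Of the other noncoding features at these genes, SPNCRNA.1208, which overlaps the upstream end of the counted adh1 feature by 332 bases, and SPNCRNA.1622 beside zrt1 had enough counts for a test. Of these 2 features 0 were called in nht1, iec1 or iec5 by edgeR, also at an unadjusted p under 0.05, where 6.57%, 14.7% and 1.46% of 1096 noncoding features were called. SPNCRNA.1622 had 8.76 and 7.34 CPM in wild type and 11.0 and 10.3 in iec1, a log2 fold change of 0.40 (SE 0.40, adjusted p = 0.588 by edgeR). SPNCRNA.1208 had 24.8 and 26.6 CPM in wild type and 28.0 and 32.3 in iec1, a log2 fold change of 0.24 (SE 0.25, adjusted p = 0.601 by edgeR).

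A wider list of 13 genes for zinc transport, metal binding and alcohol dehydrogenases was read in the same fit, of which 11 had enough counts. Of these 11, the 2 dehydrogenase genes adh1 and adh8 rose in nht1 and in iec1 and none fell, where 4.13% and 10.3% of all tested genes were called. In iec5 edgeR and DESeq2 called 0 of 11, with 2 at an unadjusted p under 0.05, where 0.408% of all genes were called. The median log2 fold change of the 11 was 0.25 in nht1, 0.20 in iec1 and 0.12 in iec5, against 0.02, 0.02 and 0.01 over all tested genes. No transporter gene of the list passed in this fit: fet4, for an iron and zinc transporter, stood at 0.58 (SE 0.31, edgeR adjusted p = 0.364) in nht1, and zip2, for a zinc transporter, at 0.50 (SE 0.16, adjusted p = 0.0557) in iec1. The Golgi zinc importer genes cis4 and zrg17, the ZIP family gene zip3 and zng1, which encodes a nucleotide-binding protein of the CobW family, were not called in any of the 3. Nor were pcs2, for phytochelatin synthase, hmt1, for the vacuolar phytochelatin transporter, and hmt2, for a sulfide-quinone oxidoreductase. The other 2 of the 13, SPBC1348.06c and SPAC977.05c, both annotated as Vel1p domain proteins, had 0 to 2 counts in every library and were not tested. How reads that map to more than 1 place were handled is not stated in the labels, so these low counts may not give their levels. Each had 2 matches to the Loz1 element core in its window. In all, 3 of these 13 genes had a match.

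**Figure D5:**
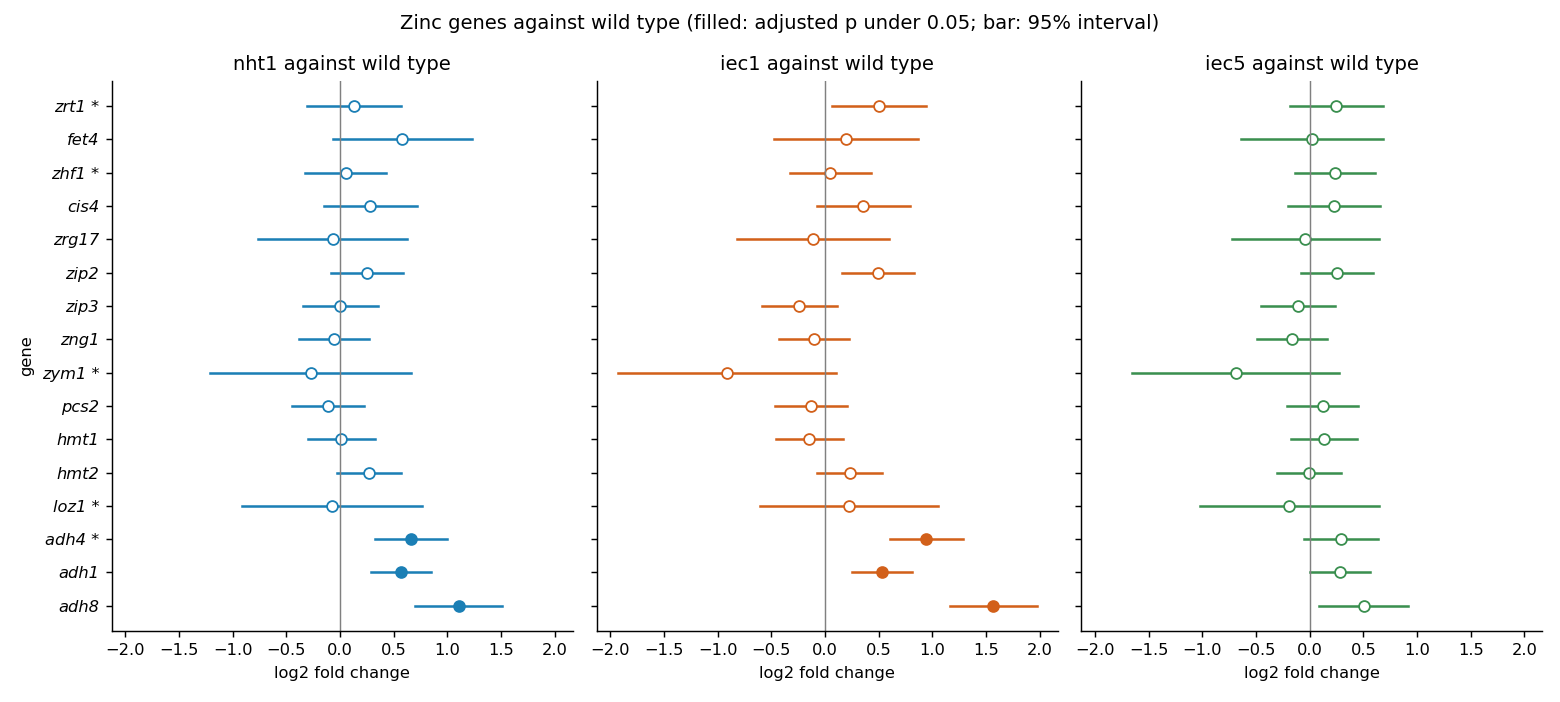
Log2 fold change against wild type of the 5 zinc genes (marked with an asterisk) and of the 11 further tested genes, with 95% intervals as bars; filled circles have an adjusted p under 0.05. Filled circles are those of adh4, adh1 and adh8 in nht1 and iec1.

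The genes beside the 5 were examined for changes that cover more than 1 gene. Beside adh4, SPAC5H10.07 was not called in nht1, iec1 or iec5, and SPAC5H10.05c had 0 to 5 counts and was not tested. Beside zhf1, pst2, for a subunit of a Clr6 histone deacetylase complex, rose in iec1 (log2 fold change 0.47, SE 0.14, edgeR adjusted p = 0.0458), while zhf1 itself was at 0.05. The pst2 call was not followed in the fits that left out a library. The other tested neighbours, among them sir2, mok13 and hsp104 at zrt1, ypf1 and SPAC25B8.18 at loz1, hpt1 at zhf1 and scd2 at zym1, were not called in nht1, iec1 or iec5. Of all tested genes 4.13%, 10.3% and 0.408% were called in nht1, iec1 and iec5.

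Among all tested genes other than the 5, those with a match to the Loz1 element core were set beside those without. In iec1, 14.3% of 413 genes with a match were called, 54 up and 5 down. Of 4220 genes without a match 9.81% were called, 317 up and 97 down. In nht1 the shares were 4.84% and 4.05%, and in iec5 0.484% and 0.403%. These shares are a description, with no test.

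The profile of adh4 over the 8 libraries was most like those of zta1, for a quinone oxidoreductase (Pearson r = 0.99), osr2 (r = 0.99) and SPCC777.03c (r = 0.98), the highest of 4585 genes with a mean log2 CPM above 2. The closest to zrt1 were imt3, for a mannosyltransferase (r = 0.963), SPAC824.03c (0.959) and nrd1, for an RNA-binding protein (0.938). The closest to loz1 were SPBC36.01c (0.938), ede1 (0.91) and SPAC9.02c (0.908), those to zhf1 SPCC622.01c (0.923), mfs3 (0.92) and SPBC530.15c (0.915), and those to zym1 nog1 (0.94), sec27 (0.922) and ost2 (0.912). Among the 5 zinc genes themselves, the highest correlation was between adh4 and zrt1 (0.655) and the lowest between adh4 and zym1 (-0.358). These correlations describe 8 libraries in 4 groups that share library and depth, with no p.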

How the data were processed

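The authors deposited raw counts per feature in 2 tables, coding and noncoding, for 8 RNA libraries of total RNA depleted of ribosomal RNA. Per the submitters' processing notes, HISAT2 2.1.0, featureCounts 1.6.1, DESeq2 1.28.0 and build ASM294v2 were used; the labels do not state how strand or multi-mapping reads were handled. Feature lengths are those of the deposited tables, per the file headers. Of 5137 coding features 5115 matched RefSeq (ASM294v3), used for names and for sequence.

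Counts were fitted with edgeR 4.0.16 (R 4.3.3) by quasi-likelihood with TMM scaling and its default low-count filter, in 1 fit of 8 libraries, over 4652 coding genes and, with the coding scaling, 1096 noncoding features. CPM uses the TMM-scaled library size. Adjusted p-values are Benjamini-Hochberg over all tested features. Standard errors and 95% intervals are approximate, with the error taken as the log2 value divided by the root of the F statistic. Correlations used log2 CPM with a prior count of 2. For each gene the 3 most similar were named; on the wider list, those called and examples chosen after their values were seen were named. The members and lists were chosen with earlier results of these data known. Alternatives were DESeq2 1.42.0, RLE scaling, no filter, a replicate block, fits of 2 groups and leaving out each library. On simulated counts for nht1, iec1 and iec5 against wild type, 46.3%, 41.8% and 37.3% of genes changed 1.5-fold were recovered, 85.1%, 79.1% and 82.1% of those changed 2-fold, and 100% of those changed 4-fold in each, with 8, 5 and 8 of 4452 unchanged genes called. Tables and figures used Python 3.11.15, pandas 2.3.3 and matplotlib 3.10.9.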

Additional observations from a re-analysis of the deposited data

Results flagged for a closer look

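The effects of the libraries labelled iec1 and iec5 differed for a pair of genes when tested directly against each other with edgeR: adh4 was higher in iec1 by 0.653 on the log2 scale (adjusted p = 0.0235) and adh8 by 1.07 (adjusted p = 0.00236). In both genes the 2 iec1 libraries lay above the 2 iec5 libraries. Of the 11 tested genes of the wider list, 6 did not overlap between these groups and 1, adh8, was called, where 4.71% of all tested genes were called. The share of all tested genes that did not overlap was not computed for this comparison.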

How the results depend on the processing

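With DESeq2, RLE scaling, no low-count filter and fits of 2 groups, the number of the 5 genes called in each of the 6 comparisons did not change, nor did that of the wider list against wild type. The count of 0 noncoding features at these genes held with own scaling of the noncoding table, no filter, the block and each library left out. A block on the replicate number raised all calls to 356 in nht1, 695 in iec1 and 37 in iec5. Without it they were 192, 477 and 19. The block called 2 of the 5 genes in iec1, since zrt1 passed (edgeR adjusted p = 0.0298). It called 3 of the wider list in iec1 in place of 2, since zip2 passed (edgeR adjusted p = 0.0353). Deviations of same-numbered libraries correlated at -0.0694 to 0.274 between groups, and just the value of nht1 with iec1 lay below 0. The main fit did not pair samples by number, and an effect shared by same-numbered libraries was not tested. Leaving out 1 library gave 0 to 1 of the 5 genes in nht1, 1 to 2 in iec1 and 0 to 1 for iec1 against iec5; 0 to 2 and 1 to 2 of the wider list in nht1 and iec1; and 51 to 243, 234 to 484 and 2 to 22 of all genes in nht1, iec1 and iec5. No uncalled log2 fold change of zrt1, loz1, zhf1 or zym1 that turned sign passed the test. For zrt1 they ran from -0.079 to 0.52 in iec5, -0.0052 to 0.67 for iec1 against nht1, -0.21 to 0.39 for iec5 against nht1 and -0.12 to 0.58 for iec1 against iec5. For loz1 they ran from -0.32 to 0.15 in nht1, -0.69 to 0.82 in iec1, -0.45 to 0.023 in iec5, -0.62 to 0.92 for iec1 against nht1, -0.38 to 0.13 for iec5 against nht1 and -0.50 to 1.02 for iec1 against iec5. For zhf1 they ran from -0.12 to 0.21 in nht1, -0.047 to 0.16 in iec1, -0.037 to 0.46 in iec5, -0.16 to 0.17 for iec1 against nht1 (0.014 with the block), -0.093 to 0.41 for iec5 against nht1 and -0.41 to 0.088 for iec1 against iec5. For zym1 they ran from -1.08 to 0.21 in nht1, -1.12 to 0.16 for iec1 against nht1, -0.90 to 0.39 for iec5 against nht1 and -0.47 to 0.021 for iec1 against iec5. The cause of these changes was not tested. Where a fit left a group with 1 library, that library was assumed to vary like the other groups.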
